A study of Mus musculus with 8 samples.

Results

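Oligodendrocytes are the glial cells that wrap axons of the central nervous system in myelin, a stack of compacted membrane that speeds conduction. They arise from precursors that carry the growth factor receptor *Pdgfra* and the proteoglycan *Cspg4*, pass through a newly formed stage, and then make large amounts of the proteins and lipids of the sheath. Transcription factors of the SOX and OLIG families act across this lineage, and hypothalamic fiber tracts contain myelin.

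The 37 genes described here cover this lineage, and they were chosen by gene name from the annotation of the array. They were carried by 51 of the 55681 probes that are not controls, and 12 of the 37 genes had more than 1 probe. All 37 genes had a probe that could be tested, and 50 of their 51 probes were tested, since a second probe of *Gpr37* stood well above background on too few arrays. The brightest tested probe stood for its gene, and it was above background on all 8 arrays for each gene except *Enpp6*, whose probe was not above background in control 8.5.

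The study measured gene expression in the dissected hypothalamus of adult male C3H/HeN mice that had been through operant tests and were food deprived before collection. The 4 MS mice (5.3, 7.2, 7.1 and 7.6) had been separated daily from their dam from postnatal day 2 to 14, while the dam was exposed to unpredictable stress. The 4 control mice (8.2, 8.4, 6.2 and 8.5) had stayed with an undisturbed dam, and both groups were weaned on postnatal day 21. The labels do not tie mice to litters, and p-values here reflect only how these mice vary. MS 7.2, 7.1 and 7.6 share the number before the dot, as do control 8.2, 8.4 and 8.5, and no such number is in both groups. The labels do not say what it stands for. If it marks a shared unit, mice within a group are not independent.

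Each mouse gave 1 single-color array made from 200 ng of RNA, and all 8 arrays lay on 1 slide, with 2 mice of each group in each of its 2 rows. Levels are log2 signals relative to the 75th percentile of the array, so a level of 0 equals that percentile. The dimmest array was that of MS 7.6, with a 75th percentile of 567, against 853 to 1018 on the other arrays, and 61.2% to 71.1% of probes stood well above background. Control 8.4 and control 8.5 stood at the 2 ends of the genes described here, so results are also given without them. All 12 hypothalamic markers were measured. Pituitary markers lay 2.32 log2 units above their mean over the mice in control 6.2, where the 37 genes were close to their own mean.

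Promoters are shown for 4 genes of myelin proteins and for the precursor marker *Pdgfra*, at the first listed start of each gene. Whether the motifs go with the way the genes vary between mice was not tested. RefSeq promoters (build GRCm38.p6) matched 26 of the 37 genes, with 38 start sites. The 11 genes without an entry were *Mbp*, *Fa2h*, *Car2*, *Enpp2*, *Trf*, *Sox10*, *Olig1*, *Gpr17*, *Bcas1*, *Sgk2* and *Evi2a*. The 250 bases before the start are printed in the direction of the gene, with the SOX-type letters ACAAAG in capitals (read as CTTTGT where they lie on the other strand). ACAATG was searched in the same way, and neither of the 2 motifs can lie within the other.
Mobp: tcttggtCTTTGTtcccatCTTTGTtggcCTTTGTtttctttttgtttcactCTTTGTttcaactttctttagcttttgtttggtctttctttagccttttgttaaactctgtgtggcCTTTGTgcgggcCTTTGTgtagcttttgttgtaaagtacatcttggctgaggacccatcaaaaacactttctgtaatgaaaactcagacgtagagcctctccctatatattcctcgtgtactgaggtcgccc
Cnp: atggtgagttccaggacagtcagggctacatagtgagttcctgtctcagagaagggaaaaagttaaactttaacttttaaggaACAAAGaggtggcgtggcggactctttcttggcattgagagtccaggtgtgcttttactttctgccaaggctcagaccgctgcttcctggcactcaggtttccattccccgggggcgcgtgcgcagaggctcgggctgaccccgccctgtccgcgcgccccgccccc
Mag: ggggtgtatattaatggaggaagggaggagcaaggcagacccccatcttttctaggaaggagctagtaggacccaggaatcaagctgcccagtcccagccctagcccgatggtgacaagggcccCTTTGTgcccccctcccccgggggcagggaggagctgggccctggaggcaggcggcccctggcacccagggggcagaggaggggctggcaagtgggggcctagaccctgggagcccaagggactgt
Mog: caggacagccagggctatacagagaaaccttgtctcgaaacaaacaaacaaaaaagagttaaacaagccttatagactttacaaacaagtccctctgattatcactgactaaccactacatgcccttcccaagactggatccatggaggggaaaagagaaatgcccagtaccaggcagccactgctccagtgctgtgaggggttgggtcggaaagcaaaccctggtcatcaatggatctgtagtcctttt
Pdgfra: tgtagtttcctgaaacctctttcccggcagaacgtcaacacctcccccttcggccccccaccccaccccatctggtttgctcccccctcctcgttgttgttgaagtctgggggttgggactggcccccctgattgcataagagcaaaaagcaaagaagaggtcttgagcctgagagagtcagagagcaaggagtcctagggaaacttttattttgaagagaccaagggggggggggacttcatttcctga

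These stretches lie at chr9:120149492-120149741 (plus strand, *Mobp*), chr11:100574689-100574938 (plus, *Cnp*), chr7:30914864-30915113 (minus, *Mag*), chr17:37023399-37023648 (minus, *Mog*) and chr5:75152001-75152250 (plus, *Pdgfra*). At these starts *Mobp* held ACAAAG 6 times, all on the other strand, *Cnp* and *Mag* held it once, and *Mog* and *Pdgfra* held neither motif. *Mag* has 3 starts: another that overlaps the printed one also held ACAAAG, and the last held neither motif. Of the 38 promoters of the set, 31.6% held ACAAAG, against 16.5% of all 32851 promoters of the same length, and 39.5% held ACAAAG or ACAATG, against 25.2%. The E-box CAGCTG, which reads the same on both strands, was in 7.89% of the promoters of the set and in 13% of all promoters. Several starts of a gene overlap, and a match is a description of letters, not a binding site.

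The first question was whether maternal separation left a difference in these genes in the adult hypothalamus. No gene of the 37 passed the test of MS against control. With limma, 0 of 37 had an adjusted p under 0.05 (lowest adjusted p = 0.981), against 0 of all 37314 tested probes (0%). At an unadjusted p under 0.05 the count was 0 of 37, where 3.3% of all probes and 2.57% of all named genes passed. The MS and control mice did not overlap in 0 of 37, where 2.03% of all probes and 1.88% of all named genes had groups apart. The log2 fold changes, MS over control, ranged from -0.31 for *Sgk2* to 0.31 for *Enpp6*, with a median of -0.0012, against 0.013 for all 16606 named genes tested. Values lay above 0 for 18 of the 37 genes.

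The intervals show what size of difference these 8 arrays leave room for. For 34 of the 37 genes (91.9%) the 95% confidence interval of the fold change lay within 1.5-fold in either direction, close to the 89.3% of all named genes tested. The 3 exceptions were *Opalin*, *Sgk2* and *Enpp6*. In bulk tissue, fewer oligodendrocytes and less RNA per oligodendrocyte cannot be told apart.

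**Figure D1:**
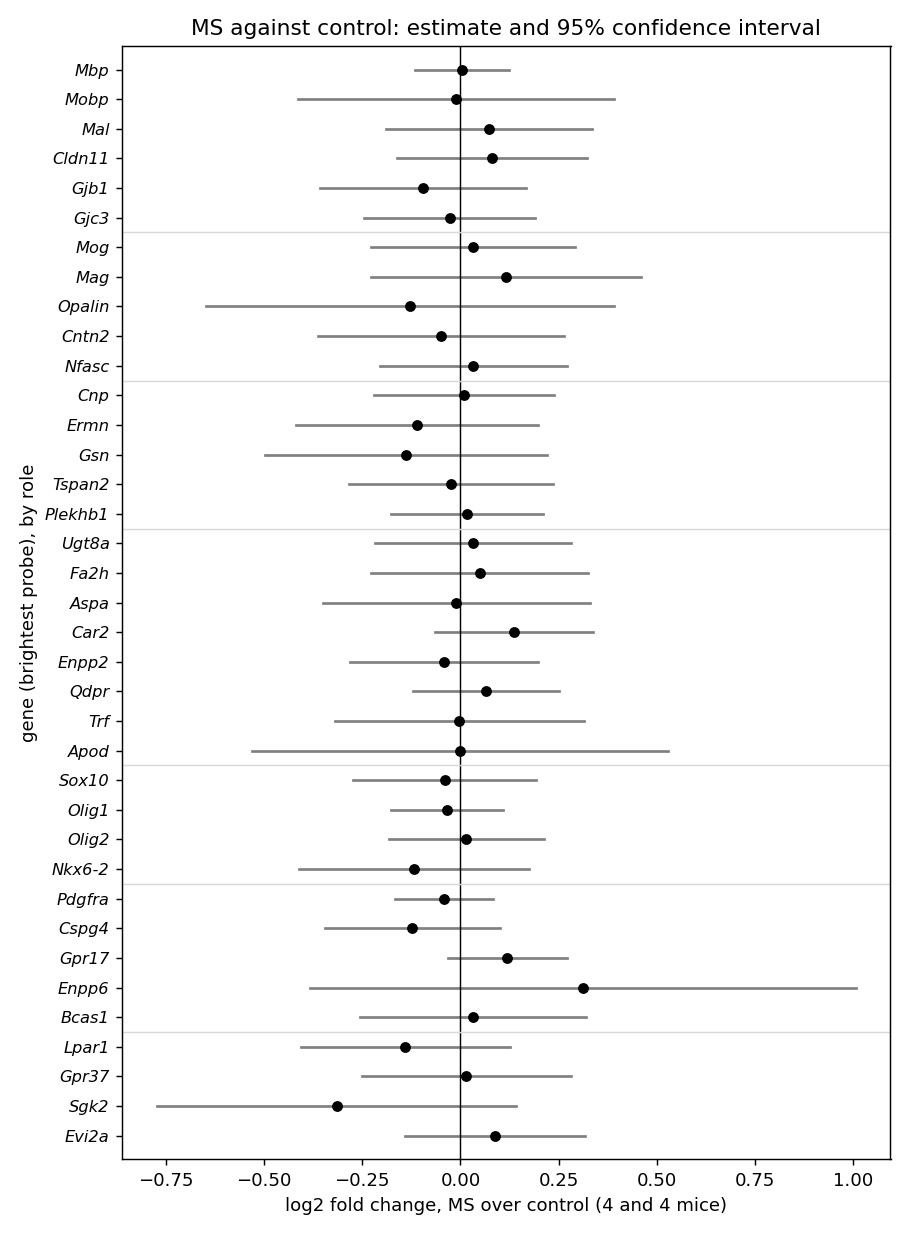
Log2 fold change of each of the 37 genes, MS over control (x axis), with the genes in rows by role. Points are limma estimates from 4 MS and 4 control mice and bars are 95% confidence intervals; all 37 bars cross 0, and the widest belong to *Enpp6*, *Apod* and *Opalin*.

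The genes of compact myelin and its junctions came first by role. *Mbp* and *Mobp* encode basic proteins on the cytoplasmic face of the sheath, *Mal* a membrane proteolipid, *Cldn11* the claudin of its tight junctions, and *Gjb1* and *Gjc3* connexins of its gap junctions. *Mobp* (brightest probe at mm9 chr9:120085150-120085209) had log2 levels of 2.85, 3.10, 2.98 and 2.92 in MS 5.3, 7.2, 7.1 and 7.6, against 3.09, 3.33, 3.04 and 2.43 in control 8.2, 8.4, 6.2 and 8.5. All 4 MS mice lay inside the range set by control 8.4 at the top and control 8.5 at the bottom. The SD was 0.11 in MS mice and 0.38 in control mice, and the log2 fold change was -0.01 ± 0.18 (SE, adjusted p = 0.997).

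*Cldn11* and *Mal* were also lowest in control 8.5, at 2.59 and 3.12, and highest in control 8.4 and in MS 7.2, at 3.11 and 3.66. *Cldn11* was at 2.92 to 3.03 in the MS mice and at 2.94 to 3.11 in the other control mice, a log2 fold change of 0.08 ± 0.11 (SE). *Mal* gave 0.07 and *Gjc3* -0.03. *Gjb1* lost its spot in control 8.5 to an outlier flag, so its log2 fold change of -0.10 ± 0.11 (SE) rests on 7 mice. With that spot kept, at a level of 0.17 against 1.44 to 1.87 on the other arrays, the estimate was 0.28 and the gene still did not pass.

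The 3 probes of *Mbp* did not tell the same story. Its brightest probe was at 3.19, 3.24, 3.26 and 3.16 in the MS mice, against 3.21, 3.17, 3.20 and 3.26 in the control mice, a range of 0.10 over all 8 mice, which was the smallest among the 37 genes. The second probe was at 1.86, 2.14, 2.12 and 1.97 in the MS mice, against 2.09, 2.45, 2.11 and 1.71 in the control mice, in the same order of mice as above, so that control 8.4 was again highest and control 8.5 lowest. The brightest probe is annotated to another RefSeq transcript of *Mbp* than the other 2 probes.

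The second probe had r = 0.91 across the 8 mice with the mean of the other genes of the set, and the brightest r = -0.42, which was 0.67 without control 8.4 and control 8.5. The third probe had r = 0.13 with that mean, so the 2 probes annotated to the same transcript differed as well. With the brightest probe, the second had r = -0.31 and the third r = 0.65. None of the 3 probes passed the test, with log2 fold changes of 0.00, -0.07 and -0.12 from the brightest to the dimmest. The probes of *Mobp*, in contrast, agreed: the further 2 had r = 0.96 and 0.84 with the brightest.

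**Figure D2:**
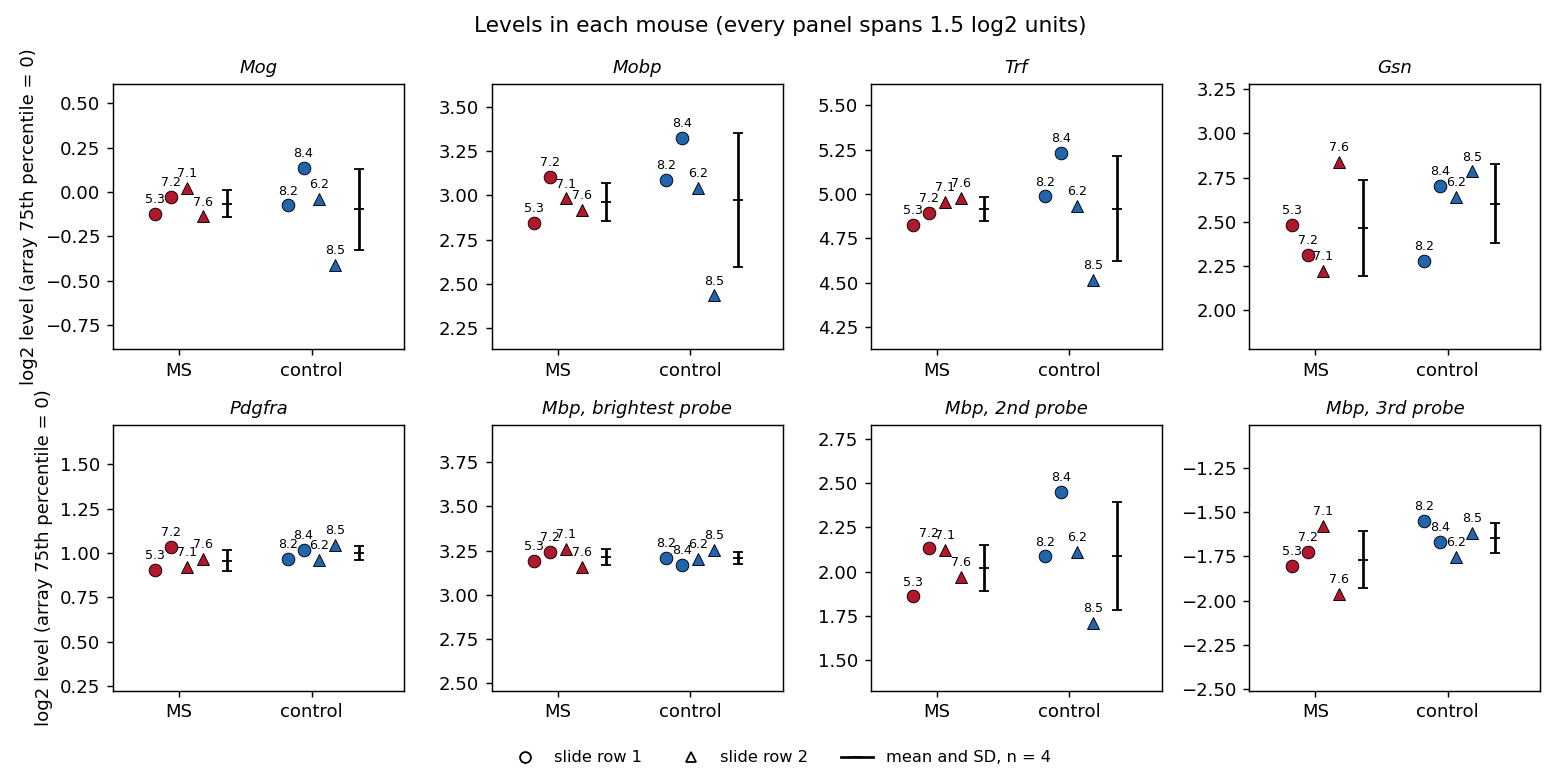
Log2 level (y axis, array 75th percentile at 0) of 5 genes and of the 3 probes of *Mbp* in each MS and control mouse, with circles for slide row 1, triangles for slide row 2 and bars for mean and SD (n = 4). *Mog*, *Mobp*, *Trf* and the second *Mbp* probe spread widely among the control mice, between 8.4 and 8.5, while *Pdgfra* and the brightest *Mbp* probe hardly varied.

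Among the surface and adhesion proteins, *Mog* encodes a glycoprotein of the outermost lamella, *Mag* a glycoprotein of the membrane next to the axon, *Opalin* an oligodendrocyte membrane protein, and *Cntn2* and *Nfasc* adhesion molecules that help to organize the axon beside the node of Ranvier. *Mag* was at 4.27, 4.32, 4.34 and 4.29 in the MS mice, against 4.29, 4.49, 4.26 and 3.72 in control 8.2, 8.4, 6.2 and 8.5. The MS mice lay close together, and control 8.5 lay well below all other mice. The log2 fold change was 0.12 ± 0.15 (SE, adjusted p = 0.981).

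*Mog* was at -0.12, -0.03, 0.02 and -0.14 in the MS mice, against -0.08, 0.14, -0.04 and -0.41 in the control mice, with a log2 fold change of 0.03 ± 0.11 (SE). It shared the order of *Mag* at both ends. *Opalin* spread widely in both groups, at -2.58, -2.21, -1.95 and -2.92 in the MS mice, against -2.14, -2.11, -2.16 and -2.73 in the control mice. *Cntn2* and *Nfasc*, which neurons also express, were highest in MS 5.3 on their brightest probes and gave -0.05 and 0.03. On the second probe of *Cntn2*, which had r = 0.49 with the brightest, control 8.2 was highest at -2.74 and MS 5.3 was at -3.09.

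Of the genes of the cytoskeleton and the inner tongue, *Cnp* encodes a phosphodiesterase of the non-compacted cytoplasm, *Ermn* an actin-associated protein, *Gsn* the actin-severing protein gelsolin, *Tspan2* a tetraspanin and *Plekhb1* a pleckstrin homology protein. *Cnp* was at 3.32, 3.44, 3.51 and 3.34 in the MS mice, against 3.48, 3.58, 3.38 and 3.14 in the control mice, a log2 fold change of 0.01 ± 0.10 (SE). Its r with the mean of the other genes, 0.95, was the highest of the set.

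*Gsn* departed from this shape. It was at 2.48, 2.31, 2.22 and 2.84 in the MS mice, against 2.28, 2.70, 2.64 and 2.78 in the control mice, so MS 7.6 and control 8.5 were its 2 highest mice on this probe. Its log2 fold change was -0.14 ± 0.16 (SE), and its second probe gave the same value, with r = 0.90 between the 2 probes, though on the second control 8.4 was highest, at 2.26, and MS 7.6 next, at 2.17. *Ermn* gave -0.11 on its brightest probe and 0.12 on the other, and the 2 probes had r = -0.05, so no direction can be read for it.

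The lipid and metabolic group holds enzymes of myelin lipid synthesis (*Ugt8a*, which makes galactosylceramide, and *Fa2h*, which hydroxylates its fatty acids), *Aspa*, which splits N-acetylaspartate, the carbonic anhydrase *Car2*, the lysophospholipase *Enpp2*, the pteridine reductase *Qdpr*, and the carriers *Trf* for iron and *Apod* for lipids. *Trf* was at 4.83, 4.89, 4.95 and 4.98 in the MS mice, against 4.99, 5.23, 4.93 and 4.52 in the control mice, and *Car2* at 3.54, 3.52, 3.48 and 3.50 in the MS mice, against 3.50, 3.46, 3.42 and 3.12 in the control mice. Control 8.5 was lowest in both, and for *Car2* the other mice lay close together. The log2 fold changes were 0.00 for *Trf* and 0.14 ± 0.09 (SE, adjusted p = 0.981) for *Car2*, and the remaining 6 lay between -0.04 and 0.07.

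*Apod* was the exception in this group, as *Gsn* was in the one before. It was at 5.42, 5.34, 5.35 and 6.30 in the MS mice, against 5.29, 5.89, 5.66 and 5.56 in the control mice, so MS 7.6 stood well above every other mouse. The group means were 5.60 in both MS and control mice, and the fitted difference was 0.00 ± 0.23 (SE). This rests on MS 7.6: without it the log2 fold change of *Apod* was -0.23, and it did not pass. The second probe of *Apod* gave -0.10 over all 8 mice.

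Of the transcription factors, *Nkx6-2* acts in differentiating and mature oligodendrocytes, and *Sox10*, *Olig1* and *Olig2* through the whole lineage. *Olig2* was at -0.09, -0.42, -0.32 and -0.36 in the MS mice, against -0.25, -0.22, -0.38 and -0.39 in the control mice. *Sox10* was at 1.60, 1.30, 1.37 and 1.24 in the MS mice, against 1.51, 1.55, 1.36 and 1.24 in the control mice. Both were highest in MS 5.3, and the group ranges overlapped almost fully. The log2 fold changes of the 4 factors ran between -0.12 for *Nkx6-2* and 0.02 for *Olig2*.

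The precursor and newly formed stages are marked by *Pdgfra* and *Cspg4* (precursors), the receptor *Gpr17* (committed precursors), and the phosphodiesterase *Enpp6* and *Bcas1* (newly formed cells). *Pdgfra* was at 0.90, 1.04, 0.92 and 0.97 in the MS mice, against 0.97, 1.02, 0.96 and 1.04 in the control mice, a log2 fold change of -0.04 ± 0.05 (SE) and an interval of -0.17 to 0.08, among the narrowest here. *Gpr17* was at 3.40, 3.29, 3.40 and 3.51 in the MS mice, against 3.29, 3.24, 3.22 and 3.37 in the control mice. The groups of *Gpr17* still overlapped, with 0.12 ± 0.07 (SE, unadjusted p = 0.107, adjusted p = 0.981), the lowest unadjusted p of the 37 genes.

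*Enpp6* was dim, at -4.90, -4.88, -4.56 and -4.73 in the MS mice, against -4.59, -4.41, -5.54 and -5.77 in the control mice. Controls 6.2 and 8.5 were its lowest mice. Its estimate was 0.31, and its second probe, above background on 5 arrays, gave -0.27. *Bcas1* was at 3.29 in control 8.5 and at 3.61 to 3.93 in the other mice, with control 8.4 highest.

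The last 4 genes were the receptors *Lpar1* (for lysophosphatidic acid) and *Gpr37*, the kinase *Sgk2*, and *Evi2a*, which lies within an intron of *Nf1*. *Sgk2* was at -2.22, -1.54, -1.61 and -2.25 in the MS mice, against -1.65, -1.32, -1.51 and -1.89 in the control mice. MS 5.3 and MS 7.6 were its lowest mice, the groups overlapped, and the log2 fold change was -0.31 ± 0.20 (SE, adjusted p = 0.981). The other 3 genes gave between -0.14 and 0.09.

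The second question was how the genes varied between arrays, regardless of group. Most varied together from mouse to mouse, and the 2 ends of this axis were both control mice. Averaged over the 37 genes, with each gene centered on its mean over the mice, the log2 deviations were -0.01, 0.01, 0.03 and -0.05 in MS 5.3, 7.2, 7.1 and 7.6, against 0.06, 0.18, -0.02 and -0.21 in control 8.2, 8.4, 6.2 and 8.5. All 4 MS mice lay between the 2 outer control mice. Control 8.4 was the highest mouse for 19 of the 37 genes and above the mean of the gene for 34. Control 8.5 was the lowest for 23 and above the mean for 8 of 36.

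**Figure D3:**
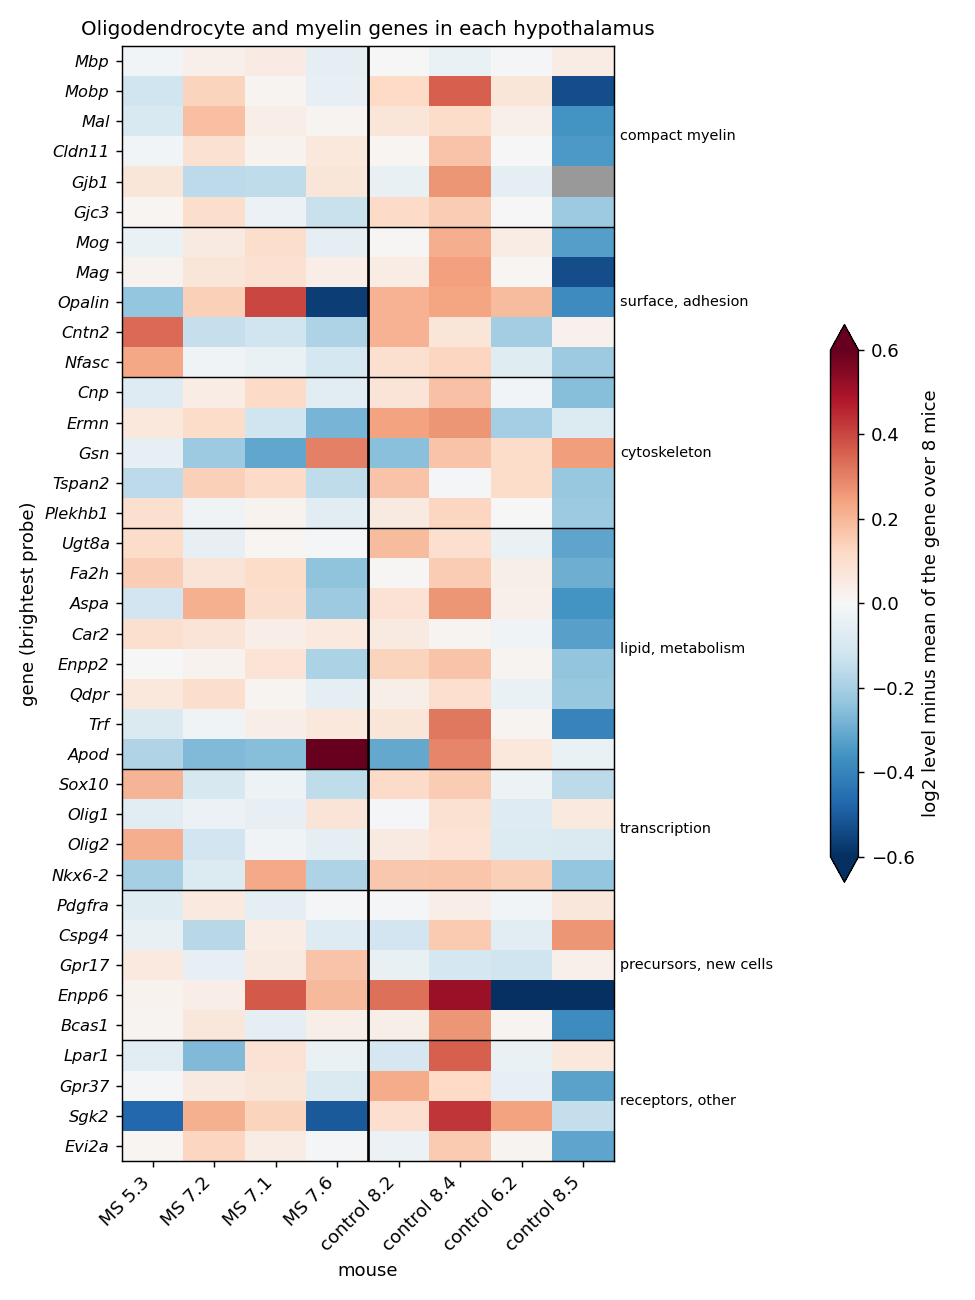
Log2 level of each gene in each mouse minus the mean of the gene over the 8 mice (color), with genes in rows by role and the MS mice left of the control mice; colors saturate at 0.6, and the gray cell is the flagged *Gjb1* spot. The column of control 8.4 is mostly above 0 (34 of 37 genes) and that of control 8.5 mostly below.

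Between control 8.4 and control 8.5 the median difference was 0.38 log2 units over the 36 genes with both values, and 31 of them (86.1%) were higher in control 8.4. Over the 16569 other genes the median difference was 0.03, and 56.4% were higher in control 8.4. The 37 genes ranged more widely over the mice than a typical gene, with a median SD of 0.158, against 0.112 for the other genes.

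The spread lay in the control group. The median SD was 0.110 in MS mice and 0.195 in control mice, against 0.112 and 0.099 for the other genes. The SD was larger in control mice than in MS mice for 26 of the 37 genes (70.3%), against 43.2% of the other genes. This rests on control 8.5: without it, 18 of 37 genes (48.6%) had the larger SD in control mice, against 31.3% of the other genes. Without control 8.4 the count was 25.

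Each gene was set against the mean of the other 36 by Pearson's r across the 8 mice. These correlations are descriptions over 8 arrays that share 1 slide and 1 scaling. The median r was 0.69, with 16 genes at 0.8 or more, 25 at 0.5 or more and 7 below 0, and the median Spearman's rho was 0.67. Of the 16566 other genes with a value in every mouse, 2.92% had r of 0.8 or more with the mean of the 37, with a median r of 0.08.

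The genes with the highest r were the myelin genes *Cnp* (0.95), *Mog* (0.94), *Mobp* (0.94) and *Trf* (0.93). The pattern was as clear within groups, where deviations from the MS and control means gave a median r of 0.78. It rests in large part on the 2 outer mice. Without control 8.4 and control 8.5 the median r was 0.33 and 3 genes reached 0.8, namely *Gpr37* (0.96), *Enpp2* (0.91) and *Cnp* (0.83). *Mobp* and *Mog* had r = 0.51 each over those 6 mice.

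By role, the median r was 0.84 for compact myelin and its junctions, 0.84 for the lipid and metabolic genes, 0.68 for surface and adhesion proteins, 0.56 for cytoskeleton and inner tongue, 0.52 for transcription factors and -0.19 for precursors and newly formed cells. The precursor markers *Pdgfra* (-0.19), *Cspg4* (-0.31) and *Gpr17* (-0.46) did not follow the myelin genes, while the newly formed cell markers *Enpp6* (0.77) and *Bcas1* (0.91) did over all 8 mice. This split rests on the 2 outer mice, since without them r was 0.21 for *Enpp6*, -0.25 for *Bcas1*, 0.02 for *Pdgfra*, -0.05 for *Cspg4* and -0.50 for *Gpr17*. The other genes below 0 were *Olig1* (-0.04), *Apod* (-0.09), *Gsn* (-0.41) and the brightest probe of *Mbp* (-0.42). No test of these differences in r was made.

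**Figure D4:**
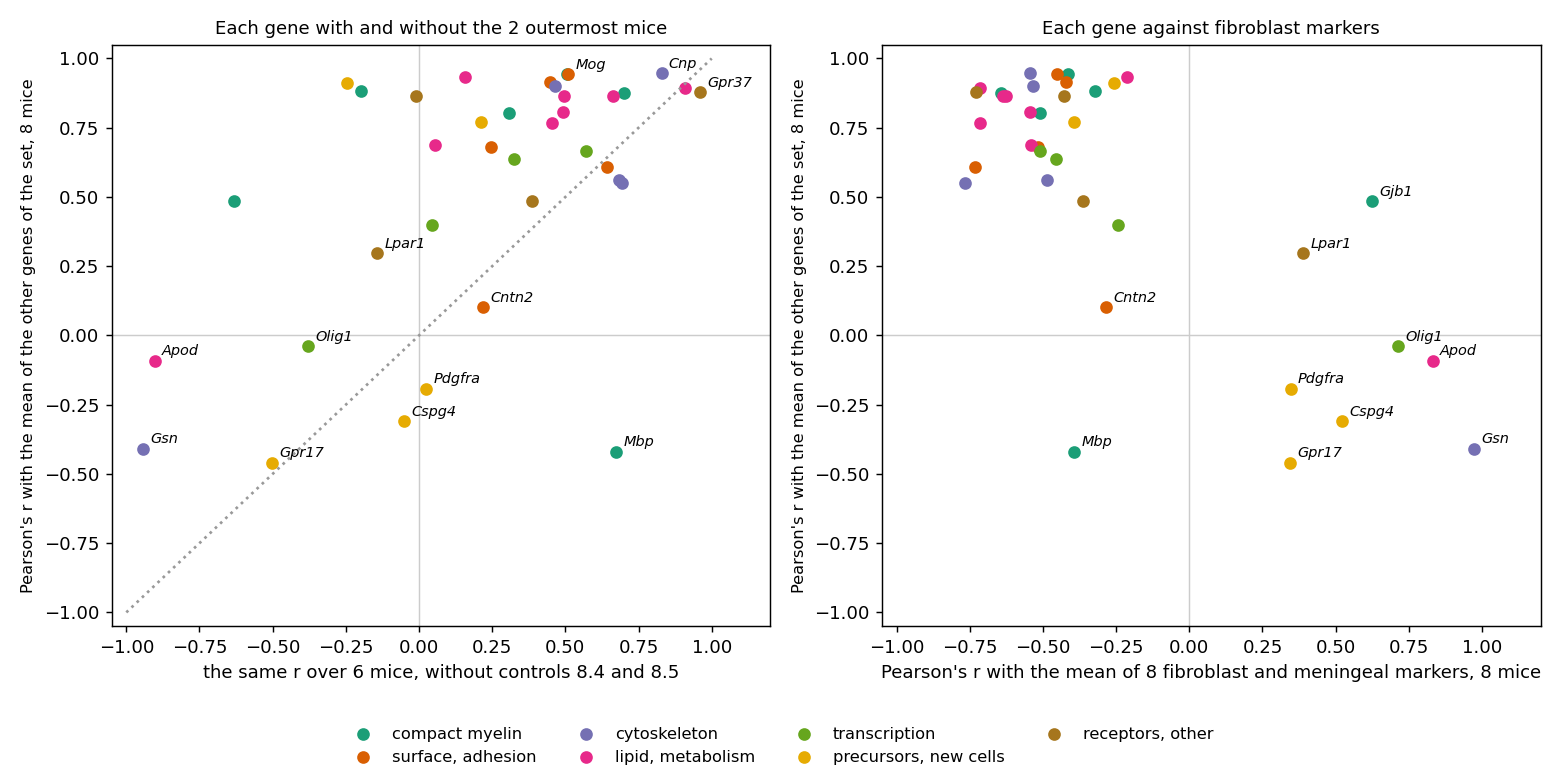
Pearson's r of each gene with the mean of the other 36 over 8 mice (y axis), against the same r without controls 8.4 and 8.5 (left, x axis, with a dotted line of equality) and against its r with the mean of 8 fibroblast and meningeal markers (right, x axis), colored by role. Most genes lie above the dotted line, and *Gsn* and *Apod* stand at the far right of the right panel.

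*Gsn* and *Apod* are also made by fibroblasts of the meninges and vessels. The mean of 8 fibroblast and meningeal markers, all 8 of them above background on all arrays, deviated by -0.25, -0.49, -0.54 and 0.84 in the MS mice, against -0.66, 0.30, 0.09 and 0.71 in the control mice. MS 7.6 and control 8.5 were highest. Their summed level, in multiples of the 75th percentile, was 10.3 to 27.4 in MS mice and 11.3 to 26.9 in control mice. *Gsn* had r = 0.97 with this mean and *Apod* r = 0.83, whereas 29 of the 37 genes had r below 0 with it. *Olig1* (0.71), *Gjb1* (0.62, over 7 mice), *Cspg4* (0.52), *Lpar1* (0.39), *Pdgfra* (0.35) and *Gpr17* (0.34) were also on the positive side. Of the 7 genes with r below 0 with the other genes of the set, 6 had r above 0 with these markers. The mean of the fibroblast markers had r = -0.45 with the mean of the 37 genes, and -0.92 without the 2 outer mice. The part of these markers in the values of the genes was not tested.

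The mean of 11 neuron markers was lowest in control 8.5, at -0.11, and had r = 0.63 with the mean of the 37 genes, but 0.12 without the 2 outer mice. Astrocyte markers had r = -0.14 over all 8 mice and -0.75 without those 2, microglial markers -0.25 and -0.53, and endothelial markers 0.15 and -0.68. Of 8 markers of Schwann cells, which make the myelin of peripheral nerve, 6 were measured and had r = -0.40, and -0.48 without the 2 outer mice. The mean of 10 markers of cortex, thalamus and striatum, with 1 gene shared with the wider oligodendrocyte list, had r = 0.63, and 0.27 without the 2 outer mice. The 75th percentile of the array had r = 0.31 and rho = 0.81 with the mean of the 37 genes, and r = 0.75 without the 2 outer mice. The part of each of these in the pattern was not tested.

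**Figure D5:**
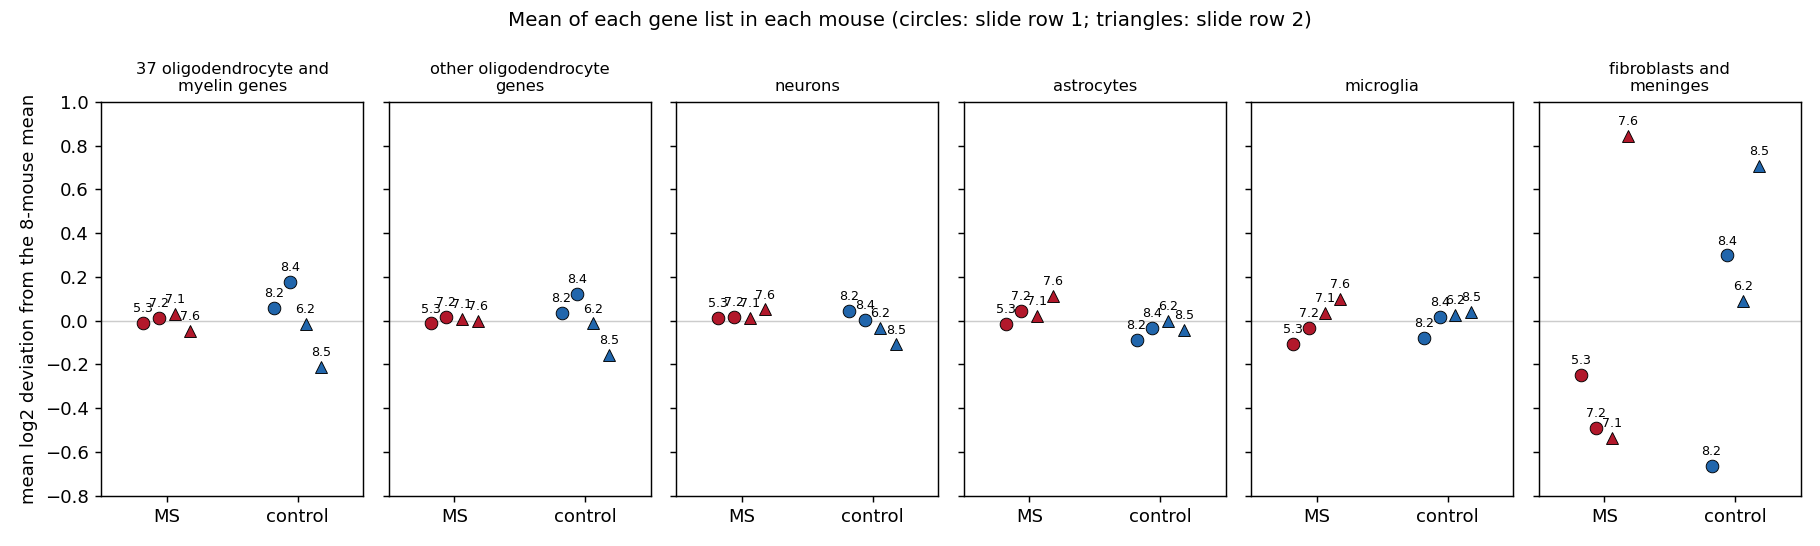
Mean log2 deviation of each gene list from its mean over the 8 mice (y axis) in each MS and control mouse, with circles for slide row 1 and triangles for slide row 2. The 37 genes and the other oligodendrocyte genes share the order of their outer mice, control 8.4 at 0.18 and 0.12 and control 8.5 at -0.21 and -0.15, while fibroblast markers reach 0.84 in MS 7.6.

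A wider list of 50 other genes of the oligodendrocyte lineage, 49 of them measured, gave the same picture of MS against control. None passed the test (0 of 49, and 0 at an unadjusted p under 0.05), 24 of 49 lay above 0, and the median log2 fold change was 0.00, with a range of -0.12 to 0.20. *Myrf*, which encodes a transcription factor of myelination, was not tested. The mean of the 49 genes had r = 0.98 with the mean of the 37, and 0.79 without the 2 outer mice. One by one the genes varied less closely with it: 14 of the 49 (28.6%) had r of 0.8 or more. Their median r was 0.43, with a range of -0.42 to 0.97.

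Within the wider list, the lowest unadjusted p-values in each direction belonged to the transcription factors *Sox8* (log2 fold change 0.17) and *Zfp488* (0.20), above 0, and to the matrix protein *Tnr* (-0.12) and the creatine synthesis enzyme *Gamt* (-0.12), below 0. All 4 had an adjusted p of 0.981, by limma.

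The genes outside the set with the highest r with the mean of the 37 were *Tyro3* (0.99), *Aktip* (0.98), *Itgb4* (0.97), *Adam11* (0.97) and *Tmem63a* (0.97), the last of which is also on the wider list. *Tyro3* ranked the 8 mice in exactly the same order as the mean of the 37 genes (rho = 1), and its r was 0.97 without the 2 outer mice. It was at 3.09, 3.13, 3.16 and 3.06 in the MS mice, against 3.22, 3.32, 3.08 and 2.89 in the control mice. The lowest r belonged to *Ythdf3* (-0.98), *Tmem255a* (-0.97, listed under the older name *Fam70a*) and *Astn1* (-0.97). *Astn1* ranked the mice in the reverse order, with 4.75 in control 8.4 and 4.96 in control 8.5.

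The 2 outer mice lay in different slide rows, control 8.4 in row 1 and control 8.5 in row 2. Averaged over the 37 genes, the other mice of row 1 deviated by -0.01, 0.01 and 0.06 (MS 5.3, MS 7.2 and control 8.2). Those of row 2 deviated by 0.03, -0.05 and -0.02 (MS 7.1, MS 7.6 and control 6.2). The part of the slide row in the difference between control 8.4 and control 8.5 was not tested. Within row 1 (MS 5.3 and 7.2 against control 8.2 and 8.4) the median log2 fold change of the genes was -0.10, and within row 2 (MS 7.1 and 7.6 against control 6.2 and 8.5) it was 0.07. The 2 rows gave opposite signs for 25 of 36 genes (69.4%), against 51.6% of the other genes. *Trf* gave -0.25 in row 1 and 0.24 in row 2, *Mobp* -0.23 and 0.21, and *Mag* -0.10 and 0.33. With the row as a block in the fit, 0 of 37 genes passed.

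The median also turned with single mice, without any gene passing. Without control 8.5 it was -0.07, with 5 of 37 genes above 0, and without control 8.4 it was 0.06, with 25 of 37 above 0. With both left out it was -0.01, with 17 of 37 above 0.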

How the data were processed

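The authors extracted each array with Agilent Feature Extraction 10.10.1.1, and the deposited array files hold the scanner's processed signal, a background-subtracted intensity, beside other intensity columns and flags. Probe positions are on mm9. The study's methods name another design number for the array than the files do. The authors' table of 34970 probes holds log2 values with array medians of 8.66 and was used as an alternative.

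Log2 processed signals without outlier spots were averaged per probe, and the 75th percentile of all noncontrol spots of the array was subtracted. No noncontrol probe was saturated. Probes were tested if flagged as above background on 4 or more arrays (37314 probes), with limma 3.58.1 (lmFit and eBayes, two-sided) in R 4.3.3, Benjamini-Hochberg adjustment over all probes tested and a threshold of 0.05. The fit was tested on simulated data. Names of genes outside the set came from RefSeq accessions or symbols, and 25914 probes kept none.

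The 37 genes, their roles, the wider oligodendrocyte list and the marker lists of other cells and tissues were chosen with earlier results of these data known, so no list was tested. Named genes were all 37, the 5 highest and 3 lowest by r with their mean, and the 2 of the wider list with the smallest p in each direction. Another gene that the rule named is not reported here. Alternatives covered scaling, background correction, filters, the authors' table, slide row, the number before the dot of the mouse number, weights, trend, averaging over probes and leaving out each mouse. The number of arrays limits the precision.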

Additional observations from a re-analysis of the deposited data

Results flagged for a closer look

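Among the 37 genes, 4 of the 73 groups of 4 mice had one mouse set far apart from the rest (a gap above Dixon's critical value). This is near the 1 in 20 that chance gives, and the share over all genes was not computed. The 4 cases are therefore given as values only. *Apod* in MS mice was set apart by MS 7.6 at a log2 level of 6.30, with the next MS mouse at 5.42. *Cntn2* in MS mice was set apart by MS 5.3 at -2.44, with the next at -2.89, on the brightest probe only; on the second probe MS 5.3 was at -3.09, inside the range of the MS mice. *Opalin* and *Nkx6-2* in control mice were set apart by control 8.5, at -2.73 and -1.27, with the next control mice at -2.16 and -0.90.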

How the results depend on the processing

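Over 24 other settings (normalization, filters, the authors' table, blocks, weights, trend, averaging over probes, and leaving out mice or spots), 0 of 37 genes passed the test in each (0 of 36 where a probe had to be above background on all 8 arrays, which leaves out *Enpp6*). The count at an unadjusted p under 0.05 was 0 except within slide row 1 alone, where it was 2 (*Enpp6* and *Nkx6-2*), and within row 2 alone, where it was 1 (*Enpp6*, in the other direction). The share of all probes in these 2 fits was not computed, so the counts are not read as a result. *Enpp6* was dim, and its second probe gave -0.20 in row 1 and -0.33 in row 2. The median log2 fold change stayed within -0.10 and 0.07 (both from single slide rows). Leaving out one mouse gave -0.07 to 0.06. The log2 fold change kept its sign in every setting for 5 of 37 genes (*Car2*, *Qdpr*, *Pdgfra*, *Gpr17* and *Sgk2*), so small values of the others have no settled direction.

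The median r of the genes with each other, 0.69 over 8 mice, was 0.53 to 0.82 with one mouse left out (0.53, with 6 genes at 0.8 or more, without control 8.5), 0.78 on deviations from group means, 0.78 with flagged spots kept and 0.33 without controls 8.4 and 8.5. The last 2 settings, and the next brightest probe of *Mbp* in place of the brightest (0.76), were chosen after seeing the data. Other scalings, filters and the authors' table gave 0.64 to 0.77. No paired analysis was possible because MS and control mice share no replicate number.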

Other observations

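Myelin-associated genes were not the list that varied most between these mice, and their mean ran from -0.21 in control 8.5 to 0.18 in control 8.4. Pituitary markers ran widest, from -0.74 in control 8.4 to 2.32 in control 6.2, and hypothalamus markers from -0.30 in MS 7.2 to 0.28 in control 8.4. Ependymal and tanycyte markers, given below, spanned less than the 37 genes. The lists differ in their number of genes, so the spans are not like for like. Averaged over their markers, fibroblasts and meninges ran from -0.54 in MS 7.1 to 0.84 in MS 7.6 among MS mice and from -0.66 in control 8.2 to 0.71 in control 8.5 among control mice. Choroid plexus markers ran from -0.30 in MS 7.1 to 0.20 in MS 7.6 among MS mice and from -0.38 in control 8.4 to 0.37 in control 6.2 among control mice, and ependymal and tanycyte markers from -0.11 in MS 7.2 to 0.10 in MS 5.3 among MS mice and from -0.03 in control 8.4 to 0.09 in control 8.5 among control mice.

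No list held a gene past the test. The median log2 fold change, MS over control, was 0.06 for 11 neuron markers, 0.09 for 10 of astrocytes, 0.02 for 10 of microglia, 0.00 for 8 of endothelium and -0.16 for 8 of fibroblasts and meninges. It was 0.00 for 7 ependymal and tanycyte markers, -0.10 for 5 of choroid plexus, -0.04 for 6 of Schwann cells, -0.13 for 12 of hypothalamus, -0.02 for 10 of cortex, thalamus and striatum, and -0.59 for 7 of pituitary, where control 6.2 stood far above the other mice.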
